A study of Rattus norvegicus with 24 samples.

Results

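The genes described here are 9 genes that mark neutrophils: S100a8, S100a9, Ltf, Camp, Mpo, Elane, Mmp8, Csf3r and Cxcr2. They were chosen by name, and each array probe was matched to them through its accession. A probe was matched for 8 of the 9 genes, with 1 probe and 1 spot on each array, among 15443 gene symbols on the array, and none was matched for Mpo. Of the 8, S100a8, S100a9, Camp, Csf3r and Cxcr2 were well above background on all 24 arrays and entered the test across 21261 genes or unnamed probes, whereas Ltf, Elane and Mmp8 were too dim on most arrays and are given as levels.

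The mRNA came from the lungs of Fischer-344 rats, an inbred strain, which breathed filtered clean air (control) or hexanal, a volatile aldehyde, at 600, 1000 or 1500 ppm for 4 h a day on 5 days a week. The labels give their age as 7 to 8 weeks, and the article gives 7 weeks at purchase. The exposure came after purchase, so the lungs were taken at a later age. Each group held 6 rats, 3 males and 3 females, with 1 array for each of the 24 rats. The sample titles give ppm, while the treatment protocol gives the same concentrations in mg/m3 and a duration of 5 weeks; the article gives ppm and a shorter duration. No group carried another treatment, and every rat was of the same strain with no altered allele.

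Neutrophils are short-lived white blood cells that leave the bone marrow under the control of G-CSF, circulate in blood, marginate in the vessels of the lung and enter tissue along gradients of CXC chemokines. They carry antimicrobial proteins in granules that are filled in sequence during maturation in the marrow: azurophil granules hold myeloperoxidase (Mpo) and neutrophil elastase (Elane), specific granules hold lactoferrin (Ltf), cathelicidin (Camp) and collagenase (Mmp8), and the cytosol holds the calcium-binding proteins S100a8 and S100a9, which pair to form calprotectin. Transcripts of the azurophil proteins are known to be largely lost before the cell leaves the marrow, while those of S100a8, S100a9, the G-CSF receptor Csf3r and the chemokine receptor Cxcr2 persist in mature cells. Lactoferrin is also made by glandular epithelium. In whole lung tissue, fewer neutrophils, less of an RNA in each neutrophil and less of it from other cells cannot be told apart.

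A promoter window of 250 bases before to 50 bases after the start of the gene was found for 7 of the 9 genes in RefSeq tables of the build GRCr8. The windows of S100a9, Csf3r and Cxcr2, whose levels moved together across rats, and of Ltf, which the study named, are printed 5′ to 3′ on the strand of the gene, for S100a9 chr2:178490573-178490872 (minus), Csf3r chr5:143582970-143583269 (plus), Cxcr2 chr9:83178395-83178694 (plus) and Ltf chr8:119878094-119878393 (plus). Capitals mark matches, on either strand, to GAGGAA, a core bound by PU.1, or to TTGCNNAA, bound by C/EBP factors; both are regulators of myeloid genes.
S100a9: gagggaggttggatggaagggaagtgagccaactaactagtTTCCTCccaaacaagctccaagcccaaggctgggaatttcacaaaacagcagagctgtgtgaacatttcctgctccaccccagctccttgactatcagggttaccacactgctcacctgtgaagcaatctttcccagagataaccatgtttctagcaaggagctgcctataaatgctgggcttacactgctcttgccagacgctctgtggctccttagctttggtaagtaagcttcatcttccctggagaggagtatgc
Csf3r: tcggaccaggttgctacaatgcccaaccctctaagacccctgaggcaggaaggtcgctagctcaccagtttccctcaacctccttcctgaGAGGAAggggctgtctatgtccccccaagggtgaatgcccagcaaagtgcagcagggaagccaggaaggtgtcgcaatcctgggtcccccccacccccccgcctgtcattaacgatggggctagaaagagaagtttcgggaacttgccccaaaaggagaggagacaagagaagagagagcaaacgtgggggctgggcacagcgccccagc
Cxcr2: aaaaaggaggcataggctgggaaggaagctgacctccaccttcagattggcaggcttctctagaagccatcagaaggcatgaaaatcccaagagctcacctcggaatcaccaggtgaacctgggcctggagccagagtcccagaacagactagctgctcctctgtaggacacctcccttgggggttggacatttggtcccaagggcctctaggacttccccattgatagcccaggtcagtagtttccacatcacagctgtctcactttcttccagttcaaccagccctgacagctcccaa
Ltf: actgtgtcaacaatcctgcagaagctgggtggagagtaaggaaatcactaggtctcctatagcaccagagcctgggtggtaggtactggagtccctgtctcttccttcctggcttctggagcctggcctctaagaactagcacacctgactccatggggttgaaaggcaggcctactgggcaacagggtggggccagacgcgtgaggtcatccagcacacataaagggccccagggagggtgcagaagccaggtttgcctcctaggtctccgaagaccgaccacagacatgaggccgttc
GAGGAA was found once in the windows of S100a9, Csf3r and Mpo, and in 27.6% of all 33469 windows. TTGCNNAA was found only in the window of Mmp8, with 2 matches, and in 10.6% of all windows. Neither motif was in the windows of Ltf, Camp and Cxcr2, which says only that these letters are absent there.

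S100a8 and S100a9 varied widely between rats within each group, and the dose groups overlapped the controls. Every level is the log2 signal relative to the 75th percentile of its array. In the control group S100a8 ran from -0.53 to 1.51 with a median of 0.45. At 600 ppm it ran from 0.25 to 1.21 with a median of 1.05. At 1000 ppm it ran from 0.46 to 2.11 with a median of 0.93, and 2 of the 6 rats, both male, lay above every control. At 1500 ppm it ran from -0.02 to 1.65 with a median of 0.44. All 6 rats at 600 ppm, 4 at 1000 ppm and 5 at 1500 ppm lay within the range of the controls.

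S100a9 gave the same picture in its own probe. Its controls ran from 0.24 to 2.41 with a median of 1.21, and the lowest, the median and the highest were 0.76, 1.83 and 2.00 at 600 ppm. At 1000 ppm they were 1.08, 1.64 and 2.97. At 1500 ppm they were 0.53, 1.23 and 2.20. The highest control, rat 2, exceeded every rat at 600 and 1500 ppm.

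**Figure D1:**
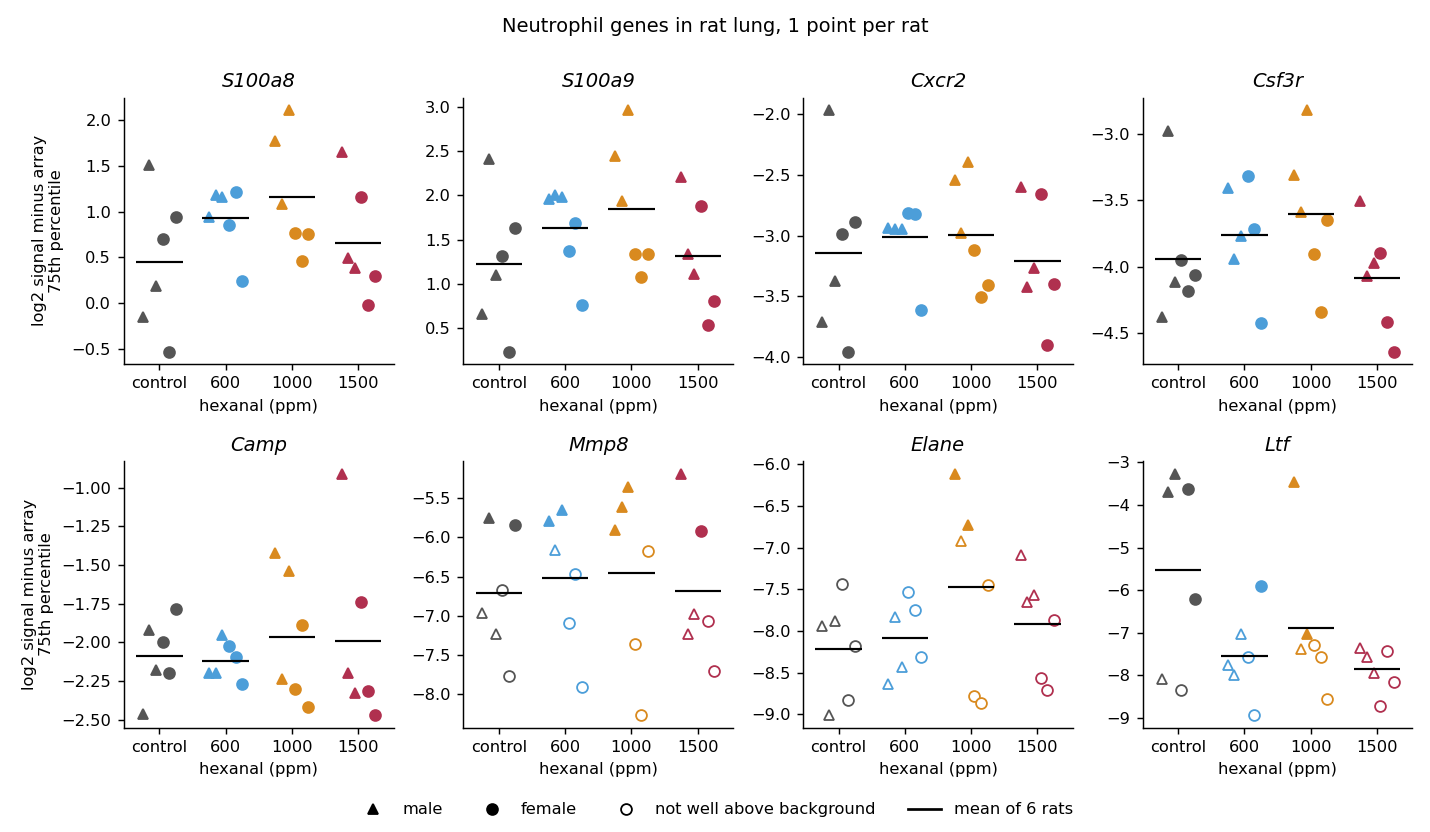
Relative log2 signal of the 8 neutrophil genes with a probe (vertical axes, log2 signal minus the 75th percentile of the array) in each rat by group (horizontal axes, ppm hexanal), with triangles for males, circles for females, open symbols for spots not well above background and black lines for the mean of 6 rats. The groups overlap for every gene, and at 1000 ppm the 3 males lie above the 3 females for S100a8, S100a9, Cxcr2, Csf3r, Mmp8 and Elane.

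Against control, the difference of S100a8 was 0.49 (SE 0.34) at 600 ppm, 0.71 (SE 0.34) at 1000 ppm and 0.22 (SE 0.34) at 1500 ppm on the log2 scale. The difference at 1000 ppm, 1.64-fold with a 95% interval of 1.01 to 2.66, was the 1 call among these genes under the rule of an unadjusted limma p under 0.05 with a fold of at least 1.5. Its unadjusted limma p was 0.0463, and the exact two-sided permutation test of 6 rats against 6 gave p = 0.106, where the smallest possible is 0.00216. It was not significant after Benjamini-Hochberg adjustment over all 21261 genes (limma adjusted p = 0.549). Under the same rule 1.29% of all genes were called higher and 0.339% lower at 1000 ppm. The call was lost with slide as a fixed block, where the difference was 0.52 (SE 0.63), when limma was run on control and 1000 ppm alone, and when any 1 of 13 rats was left out.

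S100a9 differed from control by 0.40 (SE 0.37) at 600 ppm, 0.63 (SE 0.37) at 1000 ppm and 0.09 (SE 0.37) at 1500 ppm, with no call (limma adjusted p = 0.624 at 1000 ppm). Without control rat 2, the difference of S100a9 at 1000 ppm was 0.86 and was called, with S100a8 at 0.93, while without control rat 22 they were 0.43 and 0.52 and without rat 13 at 1000 ppm 0.40 and 0.52, with neither called. At 600 ppm 0 of the 5 tested genes were called, with 0.169% of all genes called higher and 0.437% lower. At 1500 ppm 0 of the 5 were called as well, with 0.701% of all genes called higher and 0.531% lower. No gene of the 5 had a lower value than limma adjusted p = 0.996 at 600 ppm or limma adjusted p = 0.929 at 1500 ppm, and the lowest exact permutation p was 0.190 and 0.589.

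**Figure D2:**
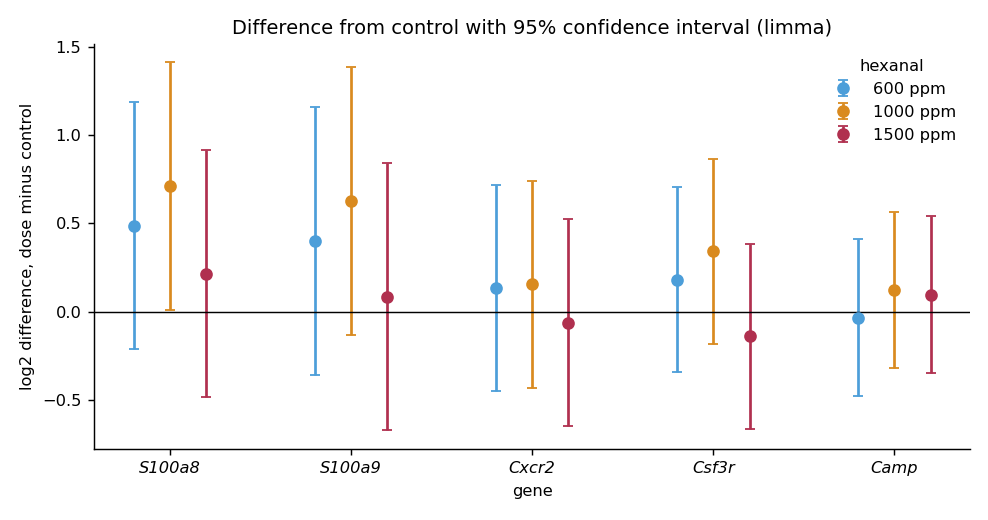
Difference from control (vertical axis, log2, dose minus control) of the 5 genes that passed the filter (horizontal axis), with points for the limma estimate and bars for its 95% confidence interval, coloured by dose. All intervals but that of S100a8 at 1000 ppm, which starts at 0.01, include 0.

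The receptors showed smaller differences. Cxcr2 encodes the receptor through which neutrophils sense CXC chemokines such as Cxcl1 and Cxcl2. Its levels ran from -3.95 to -1.97 with a median of -3.18 in controls, from -3.61 to -2.81 at 600 ppm, from -3.51 to -2.40 at 1000 ppm and from -3.90 to -2.60 at 1500 ppm, so that no exposed rat lay outside the range of the controls. Its differences from control were 0.13, 0.16 and -0.06 (SE 0.28), and the first pair became -0.13 and -0.21 with normexp background correction.

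Csf3r encodes the receptor for G-CSF, which drives the production of neutrophils. Its controls ran from -4.38 to -2.98 with a median of -4.09, and its medians were -3.74, -3.62 and -4.02 at 600, 1000 and 1500 ppm. The differences were 0.18, 0.34 and -0.14 (SE 0.25), and the first pair became -0.10 and -0.14 with normexp background correction. With slide as a fixed block they were 0.58 (SE 0.30) and 0.76 (SE 0.39), with slide as a random block 0.36 and 0.52, and within the slides that held both groups the difference at 600 ppm was 0.42 in males and 0.75 in females (3 controls and 1 rat each), with no call in either fit. Control rat 2 again held the highest control value, well apart from the other 5, which ran from -4.38 to -3.95.

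Of the granule genes, only Camp, the precursor of the antimicrobial peptide cathelicidin, passed the filter. Its controls ran from -2.46 to -1.79 with a median of -2.09, and its medians were -2.15, -2.06 and -2.26 at 600, 1000 and 1500 ppm. A single male at 1500 ppm, rat 16, stood at -0.91, and males 11 and 13 at 1000 ppm stood at -1.42 and -1.54. These 3 rats and female 36 at 1500 ppm, at -1.74, were the rats above every control. The differences from control were -0.03, 0.12 and 0.10 (SE 0.21).

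The order of the group means was 1000, 600 and 1500 ppm, then control for S100a8 and S100a9. It was 1000 ppm, 600 ppm, control and 1500 ppm for Cxcr2 and Csf3r, and 1000 ppm, 1500 ppm, control and 600 ppm for Camp. For each of the 5 tested genes, every gap between neighbours in the order was smaller than the smallest SD of its groups. The median difference of the 5 was 0.18, 0.34 and 0.09 at 600, 1000 and 1500 ppm, beside -0.00029, 0.0055 and 0.012 over all genes tested. The 5 are not separate, since most of them followed each other across the same rats. With normexp background correction S100a8 and S100a9 were 0.46 and 0.35 at 600 ppm and 0.71 and 0.57 at 1000 ppm. Camp, Csf3r and Cxcr2 were then -0.22, -0.10 and -0.13 at 600 ppm and -0.15, -0.14 and -0.21 at 1000 ppm. The median of the 5 was therefore negative at both doses under that correction. A slope on dose was called for 0 of the 5 (for S100a8 0.19 with SE 0.23 per 1000 ppm, limma adjusted p = 0.836, the lowest of the 5), while 8.46% of all genes had an unadjusted p under 0.05.

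Each slide held rats of 1 sex, and the effects of sex and of slide cannot be told apart. At 1000 ppm S100a8 differed from control by 1.14 in males and by 0.29 in females, and S100a9 by 1.06 and 0.19. A dose effect that differed between females and males, at an unadjusted limma p under 0.05, was found for 0 of the 5 genes at any dose (lowest limma adjusted p = 0.501, for Camp at 1500 ppm), where 5.02%, 9.43% and 20.2% of all genes had such a p at 600, 1000 and 1500 ppm. Without control rat 2, that difference had an unadjusted limma p under 0.05 at 1000 ppm for S100a8, S100a9 and Csf3r. These genes followed each other across rats, and the share of all genes with such a p in that refit was not recorded. Leaving out any other rat gave at most 1 such gene at 1000 ppm.

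Across all doses the male mean was above the female mean in 4 of 4 groups for S100a8, S100a9, Csf3r and Cxcr2, and in 3 of 4 for Camp. With dose in the fit, a comparison chosen after the values were seen, S100a9 was 1.60-fold higher in the 12 males than in the 12 females (0.68 on the log2 scale, SE 0.22, limma adjusted p = 0.0288). Csf3r differed by 0.39 (SE 0.16, limma adjusted p = 0.0837) and S100a8 by 0.46 (SE 0.22, limma adjusted p = 0.139). In this comparison 15.4% of all genes were higher in males at an unadjusted p under 0.05. The comparison had no slide block and took all rats as independent, although no slide held both sexes. Rats of a slide had a consensus correlation of 0.286 in a fit with no term for sex, so differences between the sexes enter it. If rats of a slide were alike beyond their sex, these SE and p values would be too small, which was not tested. A difference between slides would look the same, and no effect of sex is claimed.

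Levels of most of these genes followed each other closely from rat to rat. Over 24 rats the Pearson correlation with S100a9 was 0.97 for S100a8 (Spearman 0.97), 0.91 for Cxcr2 (0.91), 0.85 for Csf3r (0.87) and 0.65 for Camp (0.65). A permutation test shuffled all 24 rats freely across groups, sexes and slides, and so took them as exchangeable. The permutation p, from 100000 draws, was 1e-05 for the first 3, the smallest these draws can give. Its Benjamini-Hochberg value was 1.75e-05 over 7 genes, of which the 3 dim ones are not interpreted. For Camp the permutation p was 0.00037 for Pearson and 0.00101 for Spearman, with adjusted values of 0.00052 and 0.0014. No p was computed with group or slide means removed. Beside these, the median correlation of S100a9 with 21260 other genes was 0.0069 and the 95th percentile was 0.41.

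The correlations stayed positive in each split of the rats that was computed. Without rats 13 and 22, the 2 farthest from the median of S100a9, the correlations were 0.96 for S100a8, 0.90 for Cxcr2, 0.83 for Csf3r and 0.64 for Camp. With the group means removed they were 0.97, 0.93, 0.83 and 0.69. With the slide means removed they were 0.99, 0.94, 0.85 and 0.66. In males alone they were 0.98, 0.90, 0.92 and 0.68, and in females alone 0.98, 0.94, 0.62 and 0.57.

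The partners of calprotectin were the closest pair. The log2 difference between the probes of S100a9 and S100a8 stayed between 0.48 and 1.03 (SD 0.15) over 24 rats, while S100a9 itself spanned 2.73, a 6.62-fold range. Rat 22, a control, was lowest for S100a8, S100a9 and Cxcr2. Male 13 at 1000 ppm was highest for S100a8, S100a9 and Csf3r.

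**Figure D3:**
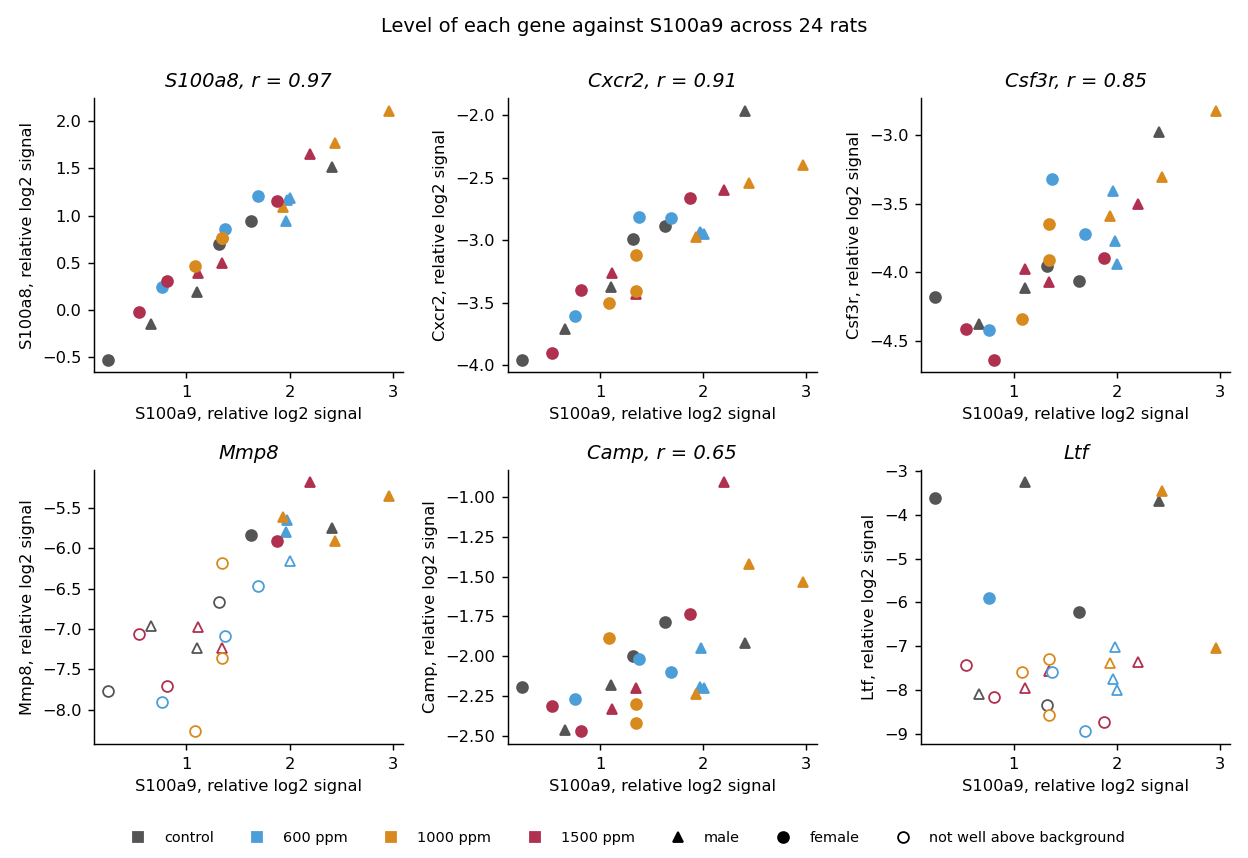
Relative log2 signal of 6 neutrophil genes (vertical axes) against that of S100a9 (horizontal axes) in 24 rats, coloured by group, with triangles for males, circles for females and open symbols where the gene on the vertical axis was not well above background. S100a8 lies close to a line (r = 0.97), the groups intermix along it, and most symbols of Mmp8 and Ltf are open, so no r is given for them.

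Mmp8, the neutrophil collagenase, was well above background on 9 of 24 arrays, 3 of them at 1000 ppm and 2 in each other group. Its level ran from -7.76 to -5.75 in controls and from -8.27 to -5.36 at 1000 ppm, where the 3 males were well above background and the 3 females were not. S100a9 ran from 1.63 to 2.97 in the 9 rats with Mmp8 well above background and from 0.24 to 2.00 in the others, ranges that overlap, and no correlation is given.

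Elane, the elastase of azurophil granules, was well above background on 2 arrays, those of males 11 and 13 at 1000 ppm, with processed signals of 38.5 and 27.4. Its signals on the other 22 arrays ran from 4.47 to 24.7, and its mean at 1000 ppm was not above the lowest signals called above background in controls, so no fold is given.

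Ltf, which encodes the iron-binding protein lactoferrin, was well above background in 7 of 24 rats. The study named this gene from these arrays, so its levels are a description with no test. In the control group the processed signals were 11.2, 180 and 311 in males 1, 2 and 3, and 7.81, 199 and 31.2 in females 21, 22 and 23. The 4 rats other than 1 and 21 were well above background.

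At 600 ppm Ltf ran from 5.40 to 49.8 with a median of 13.1, and 1 array, of female 28, was well above background. At 1000 ppm it ran from 8.22 to 242 with a median of 17.6, and 2 arrays were well above background, those of males 11 and 13, at 242 and 22.2. The spot of rat 11 carried an outlier flag from the scanner software, and its value is kept here as the 1 spot of the probe on that array. At 1500 ppm the 6 arrays ran from 3.99 to 15.8, none of them well above background. Controls 1 and 21 lay within the range at 1500 ppm, so the groups overlapped.

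At 1500 ppm Ltf was at least 2.58-fold lower than in the control group. For this bound each array at 1500 ppm, all of them dim, took the lowest signal called above background on it. The control arrays, dim ones included, kept their measured values. The bound ran from 1.88 to 3.81 when 1 control rat was left out. It fell under 1, to 0.64, without control rats 2, 3 and 22, so that no difference can be stated without these 3 animals. Dim controls at their measured values were then set against raised values at 1500 ppm, so a bound under 1 shows no reversal. On the log2 scale the control mean was -5.54 (SD 2.33) and the mean at 1500 ppm was -7.87 (SD 0.53).

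Since Ltf was not well above background on 17 of 24 arrays, where its values have no order, no correlation with S100a9 is given. Of the control rats with the 3 brightest Ltf signals, rat 2 held the highest S100a9 value of the controls, at 2.41, rat 22 the lowest, at 0.24, and rat 3 lay at 1.11.

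The genes most like S100a9 over 24 rats, among 12006 named genes above background on at least 20 arrays, were S100a8, Clec4d (r = 0.96), Nlrp12 (0.94), Cxcr2 and Il1r2 (0.85). Clec4d is a C-type lectin receptor of myeloid cells, Nlrp12 a protein of the NLR family, and Il1r2 the decoy receptor for interleukin 1. With group means removed, their correlations were 0.95 for Clec4d, 0.95 for Nlrp12 and 0.83 for Il1r2.

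Further lists of genes found in neutrophils, though not in them alone, were less uniform. Of 16 further granule genes 11 could be tested, and 0 were called at any dose. Over all genes tested, 0.169%, 1.29% and 0.701% were called higher and 0.437%, 0.339% and 0.531% lower at 600, 1000 and 1500 ppm. At such shares, 0 calls in a list this short, here or below, says little. The median differences of the 11 were 0.03, -0.01 and -0.07 at 600, 1000 and 1500 ppm. Prtn3, proteinase 3, differed by 0.38, 0.47 and 0.46 (SE 0.51), and Bpi, a protein that binds bacterial endotoxin, by 0.16, 0.46 and 0.48 (SE 0.22). Serpinb1a differed by 0.09, 0.01 and -0.32 (SE 0.12). Slpi, a protease inhibitor that airway epithelium also makes, differed by -0.22, -0.28 and -0.49 (SE 0.87). The median correlation of the 11 with S100a9 was 0.01. This list is not restricted to neutrophils, and its Lyz2 is also in the monocyte list used below. Mmp9 and Bpi were well above background on only 16 and 17 of 24 arrays. The median therefore does not show whether granule RNA of neutrophils followed S100a9. Lcn2, another protein of specific granules, had a correlation of -0.0033 and Pglyrp1, a peptidoglycan recognition protein, the highest of the list, of 0.51.

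Of 16 surface genes 11 could be tested and 0 were called, with medians of 0.13, -0.0016 and -0.09, and their median correlation with S100a9 was 0.23. Cxcr1, the sister receptor of Cxcr2, differed by 0.53 at 600 ppm. Ltb4r, a leukotriene receptor, differed by 0.49 at 1000 ppm and by -0.58 at 1500 ppm, and Itgam, an integrin of myeloid cells, by -0.31 at 1000 ppm. The 5 tested subunits of the NADPH oxidase (of 6) gave 0 calls, with medians of 0.02, -0.04 and -0.04, and a median correlation with S100a9 of 0.22, from -0.24 for Rac2 to 0.63 for Ncf4, both cytosolic.

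Signals that draw neutrophils in were tested for 9 of 15 genes with 0 calls and medians of -0.06, 0.0016 and 0.05. The chemokine Cxcl2 differed by -0.54 at 1000 ppm, and complement C3 by 0.32 at 600 ppm. The chemokine Cxcl1 differed by -0.13, -0.14 and 0.04 and the growth factor Csf3 by 0.17, -0.02 and 0.02. Il1b, which neutrophils and macrophages make, differed by 0.21 at 1000 ppm and had a correlation of 0.84 with S100a9, while the median of the 9 was -0.13, with 7 below 0 and Sele, an adhesion molecule of endothelium, lowest at -0.44. Transcription factors of granulocyte development were tested for 5 of 6 genes with 0 calls, with medians of 0.02, 0.02 and -0.10, and a median correlation with S100a9 of 0.10, from -0.26 for Gfi1 to 0.45 for Spi1, which encodes PU.1.

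**Figure D4:**
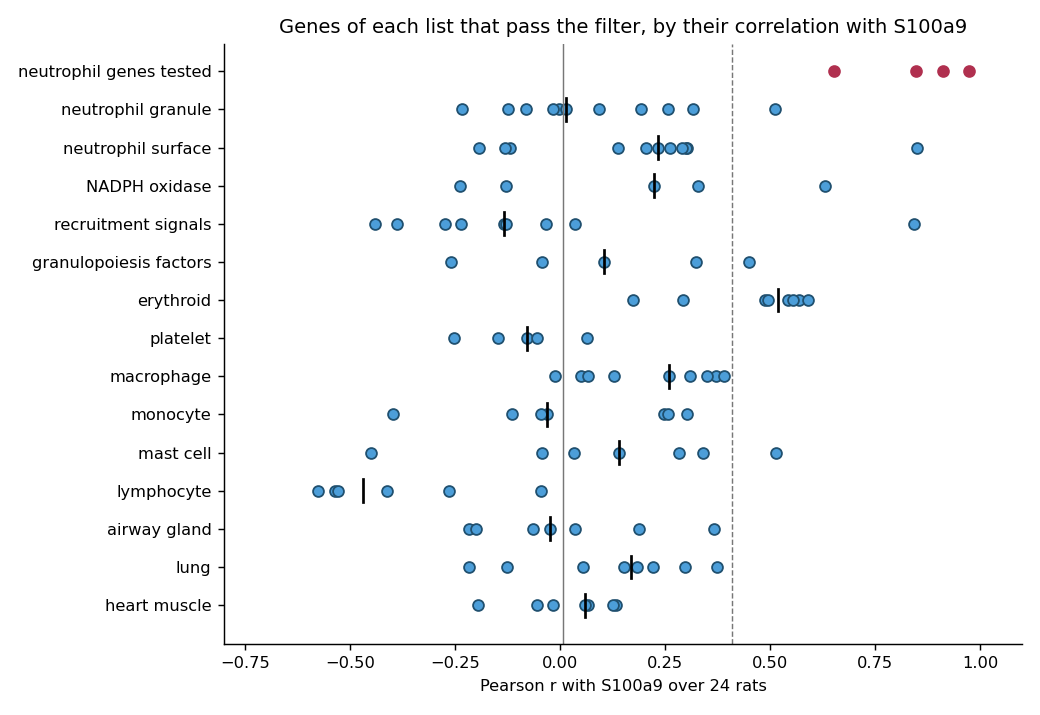
Pearson correlation with S100a9 over 24 rats (horizontal axis) of the genes that passed the filter in each list (rows), with black bars for the median of a list, a grey line for the median of all genes (0.0069) and a dashed line for their 95th percentile (0.41). The 4 other tested neutrophil genes lie between 0.65 and 0.97, 6 of 8 erythroid genes lie beyond the dashed line, and the lymphocyte genes lie below 0.

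Markers of other cells in the same tissue were set beside S100a9. Of 8 tested erythroid genes the median correlation with it was 0.52, with Hbb-b1, a beta globin, at 0.59 and Alas2, the heme synthesis enzyme of red cells, at 0.55. The summed level of the 8 ran from 339 to 547 in controls, 397 to 560 at 600 ppm, 320 to 558 at 1000 ppm and 285 to 523 at 1500 ppm. All 8 were lower than control in mean at 1000 and at 1500 ppm, where 51.4% and 53.6% of all genes were higher, and 1, Alas2, was called, at -0.81 at 1500 ppm (limma adjusted p = 0.717), where 0.531% of all genes were called lower. Of 6 tested lymphocyte genes the median correlation was -0.47, and their summed level ran from 2.02 to 4.64 in controls and from 1.59 to 4.52 in the dose groups. The part of blood cells or lymphocytes in the levels of the neutrophil genes was not tested.

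The median correlation with S100a9 was 0.26 for 9 macrophage genes, 0.14 for 7 mast cell genes, -0.03 for 7 monocyte genes, -0.08 for 5 platelet genes and -0.02 for 7 airway gland genes. None of the macrophage, mast cell, monocyte or platelet genes was called at any dose. Of the airway gland genes Bpifb1 and Scgb3a1, both secreted by airway epithelium, were called higher at 1000 ppm (2.39 and 2.95, limma adjusted p = 0.516 for both), where 1.29% of all genes were. All 8 lung markers tested, among them the surfactant protein genes Sftpc and Sftpb, were above background on all arrays with 0 calls, and their median correlation with S100a9 was 0.17.

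Heart muscle genes varied widely between the libraries. Their summed level ran from 3.43 to 36.3 in controls, 5.09 to 60.4 at 600 ppm, 8.51 to 125 at 1000 ppm and 3.52 to 127 at 1500 ppm. At 1000 ppm 3 of 7, Tnni3, Actc1 and Tnnt2, were called higher (lowest limma adjusted p = 0.516), where 1.29% of all genes were. The median correlation of the 7 with S100a9 was 0.06. Without the 7 libraries above every control in that sum, S100a8 differed by 0.66 at 1000 ppm (SE 0.41, with 3 of the 6 exposed rats left) and the call was lost.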

How the data were processed

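Lung RNA of 24 rats was hybridised to 1-colour Agilent arrays, 1 per rat, 4 on each of 6 slides. The deposited intensity is the processed signal of Agilent Feature Extraction 11.5.1.1, which the authors obtained with background subtraction and detrending within the array and no scaling between arrays, and a deposited flag marks spots well above background. The normalization of the mRNA values was not given in the sources used here. The series' value table held the same intensity to within 1% for at least 99.72% of probes. The array was designed on rn4; probes were named by accession through the RefSeq table of GRCr8 (18355 of 30367, 60.4%).

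Each array's log2 signals were centred on its 75th percentile (1701 to 3130 in signal). A probe entered when 1 of the groups had it well above background on 5 or more of its 6 arrays, with the brightest probe per gene. R 4.3.3 with limma 3.58.1 (lmFit, eBayes) was run over all 24 arrays, with Benjamini-Hochberg adjustment over 21261 genes or unnamed probes, after a test on simulated data. A call was p under 0.05 with a fold of at least 1.5. Single genes had exact permutation tests. No spot was saturated, and the number of arrays limits the precision. The genes named were all 9 neutrophil genes, of each other list the largest rise and fall at each dose, and the 5 genes most like S100a9 and Ltf; not all of these are printed, those like Ltf since most of its values have no order, and further genes of the lists were named after their values were seen. The members and lists were chosen with earlier results of these data known. The alternatives were other background correction, scaling, filters, tests, covariates and slide blocks, and leaving out each rat.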

Additional observations from a re-analysis of the deposited data

Results flagged for a closer look

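In groups of 6 rats, the gap of the highest or lowest rat to its neighbour was divided by the range of the group. Of 32 groups examined (8 genes in 4 groups), 4 exceeded Dixon's 95% critical value, and chance flags about 1 in 20 separate groups. These groups are not separate, since several of the genes followed each other across the same rats. Most values of Ltf, Elane and Mmp8 were also too dim to be ordered, so the 4 flags cannot be weighed against that rate. At 600 ppm female 28 was lowest for Cxcr2, with a ratio of 0.831, and for S100a8, with a ratio of 0.632. In the control group male 2 was highest for Csf3r, with a ratio of 0.696. At 1000 ppm male 11 was highest for Ltf, with a ratio of 0.699, on the spot that carried an outlier flag. None of the 5 tested neutrophil genes had a dose effect that differed between females and males at a limma adjusted p under 0.05. Of all 21261 genes or unnamed probes, 1056 had one at 1500 ppm and 0 at 600 or 1000 ppm.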

How the results depend on the processing

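The 15 differences of 5 genes were recomputed under 14 other settings and without each rat, and the Ltf bound under 4 settings and without each of the 12 control and 1500 ppm rats. Of these 586 values, 541 were scored as the same. A difference was so scored when it kept its direction and its side of the threshold. The Ltf bound was so scored when it stayed on its side of 1 and moved by less than the control SD of 2.33 on the log2 scale, a wide margin. Other filters, other tests, adjusted p and sex as a covariate leave a difference itself unchanged, so under these only its error or p could move. In 180 of the 586 a rat of another dose was left out, which moves only the error of a difference, and of the 390 other recomputed differences 352 kept both. The count of genes called at 1000 ppm was 1 in the analysis reported and 0 with adjusted p in the call, with the methods' t-test, with limma on control and 1 dose, with slide as a fixed or a random block (consensus correlation 0.286) and without the libraries rich in heart muscle genes, a setting chosen after seeing the data, and it was 2 in the value table without scaling (S100a8 and S100a9). Without 1 rat it ran from 0 to 2, and was 0 without control rats 1, 3 and 22, rats 6, 7, 8, 26 and 27 at 600 ppm, rats 11, 12 and 13 at 1000 ppm or rats 17 and 18 at 1500 ppm. The count at 600 ppm ran from 0 to 1 without 1 rat, with S100a8 called at 0.70 without control rat 2, and was 1 with no filter on dim probes. The count at 1500 ppm and for a dose slope was 1 with no filter, and in all 3 cases the gene was Ltf, which is near background. With no filter 1 gene, Elane, had a sex difference at 1000 ppm, and Camp had one at 1500 ppm in the value table without scaling (1 gene). Without 1 rat the count with a sex difference at 1000 ppm ran from 0 to 3. It was 3 without control rat 2 and 1, Camp, without rat 12 at 1000 ppm or rat 16 at 1500 ppm. The share of all genes called in these other settings and refits was not recorded, so the counts have no such value beside them.

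Small differences turned in sign. With normexp, Csf3r was -0.10 and -0.14 and Cxcr2 was -0.13 and -0.21 at 600 and 1000 ppm, and Camp was -0.15 and -0.050 at 1000 and 1500 ppm. Camp at 600 ppm was 0.037 in the unscaled value table and 0.024 without the libraries rich in heart muscle genes. With slide as a fixed block S100a8, S100a9 and Cxcr2 at 1500 ppm were -0.25, -0.31 and 0.0086, and within the slides that held both groups S100a8 at 600 ppm was 0.42 in males and 0.48 in females (3 controls and 1 rat each). Without 1 rat, the ranges of the differences that turned were -0.11 to 0.029 for Camp and -0.027 to 0.37 for Cxcr2 at 600 ppm, -0.0066 to 0.39 for Cxcr2 at 1000 ppm, and -0.11 to 0.32 for S100a9, -0.12 to 0.19 for Camp, -0.26 to 0.054 for Csf3r and -0.22 to 0.18 for Cxcr2 at 1500 ppm. The cause of these changes was not tested. No paired analysis was possible because the groups share no rat number. Ltf, Elane and Mmp8 are limited by signals near background, and the 600 ppm group is the only one that shares a slide with controls.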
